A study of Rattus norvegicus with 6 samples.

Results

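The genes described here are 38 genes of microglia and macrophages, the resident immune cells of the brain and of its borders. They were chosen by name: a list of marker genes, drawn up when earlier results of these data were known, was matched to the array's gene symbols with no threshold on a measured value. Of the 38, 36 had a row of their own symbol among the 20155 genes measured, and Fcrls and Cd84 had none. The RNA came from hippocampus, by the methods from pieces taken around dorsal CA3, CA2 and the dentate gyrus. The female Sprague-Dawley rats were wild type and 3 weeks old, with no transgene and no drug but an anaesthetic given to both groups. The noise group was exposed to white noise of 2 to 20 kHz at 115 dB SPL for 4 h a day over 3 days. The control group sat in the same kind of chamber without the noise. The labels give death as immediate, whereas the methods place it 6 to 8 h after a hearing test that both groups underwent. For that test the rats were anaesthetised with Zoletil and xylazine. Each group had 3 Affymetrix Rat Gene 2.0 ST arrays, each with RNA pooled from 2 rats: control arrays 1, 2 and 6 and noise arrays 2, 3 and 4. All levels are log2 intensities, so a difference of 1 is a doubling, and levels are compared only within a gene, since each gene has its own probes.

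Microglia are the macrophages of the brain tissue itself. They survive on signals through the receptor Csf1r, sense neurons and injury through surface receptors such as Cx3cr1 and P2ry12, and clear synapses and debris with the help of complement C1q and the receptor Trem2. A second population, the border-associated macrophages of the meninges, perivascular spaces and choroid plexus, is marked by Mrc1 and Cd163. Much of this programme is switched on by the transcription factor PU.1, encoded by Spi1, which binds short ETS-family motifs in the promoters and enhancers of its targets.

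Promoter sequence from RefSeq (build GRCr8, from 250 bases before to 50 after the gene's start) was at hand for 24 of the 36 genes. Overlapping motifs of the ETS kind that PU.1 reads, in 3 lengths, were searched on both strands. The shortest, GAGGAA, was present in 18 of the 24 promoters (75.0%), against 27.5% of all 27457 promoters. AGGAAGT was present in 10 (41.7%), against 8.23% of all promoters. The longest form, GAGGAAGT, was present in 4 (16.7%), those of Ctss, Cd53, Fcgr3a and Cd37, against 2.44% of all promoters. The promoters of 4 genes that recur in the results are shown, read 5′ to 3′ along the gene's own strand, with matches to GAGGAA or AGGAAGT on either strand in capitals. Evi2b lies on chr10:64972228-64972527, minus strand, C1qb on chr5:154407778-154408077, minus strand, Laptm5 on chr5:148371630-148371929, plus strand, and Cx3cr1 on chr8:128677017-128677316, minus strand.
Evi2b: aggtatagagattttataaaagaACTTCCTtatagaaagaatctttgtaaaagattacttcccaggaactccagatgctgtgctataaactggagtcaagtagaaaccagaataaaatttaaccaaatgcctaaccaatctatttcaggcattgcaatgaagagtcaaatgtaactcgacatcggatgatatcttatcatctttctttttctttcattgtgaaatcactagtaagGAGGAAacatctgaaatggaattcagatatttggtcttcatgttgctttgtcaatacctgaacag
C1qb: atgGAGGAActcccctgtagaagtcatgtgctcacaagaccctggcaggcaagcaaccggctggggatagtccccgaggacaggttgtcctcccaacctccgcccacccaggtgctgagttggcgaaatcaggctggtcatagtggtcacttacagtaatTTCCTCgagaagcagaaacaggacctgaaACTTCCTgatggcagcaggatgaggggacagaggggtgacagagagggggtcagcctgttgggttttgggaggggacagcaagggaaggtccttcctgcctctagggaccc
Laptm5: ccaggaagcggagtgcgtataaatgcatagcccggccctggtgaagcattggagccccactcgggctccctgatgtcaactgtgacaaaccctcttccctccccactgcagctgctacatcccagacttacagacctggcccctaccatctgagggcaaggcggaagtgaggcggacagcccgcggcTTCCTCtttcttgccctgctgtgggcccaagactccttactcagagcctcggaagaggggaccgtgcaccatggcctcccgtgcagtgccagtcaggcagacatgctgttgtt
Cx3cr1: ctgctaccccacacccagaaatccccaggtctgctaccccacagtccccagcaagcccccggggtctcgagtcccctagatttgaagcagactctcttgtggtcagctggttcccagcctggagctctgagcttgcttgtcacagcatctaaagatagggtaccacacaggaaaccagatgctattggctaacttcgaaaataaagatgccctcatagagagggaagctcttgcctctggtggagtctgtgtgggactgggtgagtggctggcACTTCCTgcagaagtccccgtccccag
The capitals mark letters only and no measured binding. Evi2b and C1qb hold both of the shorter motifs, Laptm5 holds GAGGAA and Cx3cr1 holds AGGAAGT.

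The microglial and macrophage genes as a whole stood at nearly the same level in both groups, and 1 of them, Evi2b, fell after noise. When the study's thresholds (a fold change of at least 1.5 and an unadjusted p of 0.05) were applied to limma's fit, 0 of the 36 genes were higher (0.288% of all genes were) and 1 was lower (0.595% of all genes were). The methods' t-test at the same thresholds also gave 0 higher and 1 lower. At an unadjusted limma p of 0.05 alone, 2 were higher, C1qb and Laptm5 (5.56%, against 4.32% of all genes), and 1 was lower, Evi2b (2.78%, against 4.91%). The p of C1qb stayed at or under 0.05 only on leaving out noise array 4 (0.0298, otherwise up to 0.0834), and that of Laptm5 only on leaving out control array 6 (0.0407, otherwise up to 0.135). By the methods' t-test, Trem2 and C1qc were also higher at an unadjusted p of 0.05 alone. Its p was 0.0085 for C1qb, 0.027 for Trem2, 0.0277 for Laptm5 and 0.0485 for C1qc, with adjusted values of 0.471 to 0.56. After Benjamini-Hochberg adjustment in limma, 0 of the 36 passed 0.05, as did 0.0149% of all genes.

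The median size of the difference was below the median standard error, though the 95% limma intervals of Evi2b, C1qb and Laptm5 lay clear of 0. The median log2 difference, noise minus control, was 0.02 over the 36 genes and 0.00 over all genes, and the median size of the difference without its sign was 0.10 against 0.11. Of the 36, 20 were above 0 and 16 below. The range was -0.78 to 0.29, and the lowest value after Evi2b was -0.31. The median standard error was 0.12. For 32 of the 36 genes (88.9%), the 95% interval of the difference lay wholly within a 1.5-fold change in either direction, which held for 82.0% of all genes. The other 4 were Cx3cr1, P2ry13, Evi2b and Selplg. These intervals are limma's, and with those of the methods' t-test the count was 25 of the 36. In bulk tissue, fewer cells of a type and less RNA per cell cannot be told apart, so an even level says nothing of either alone.

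**Figure D1:**
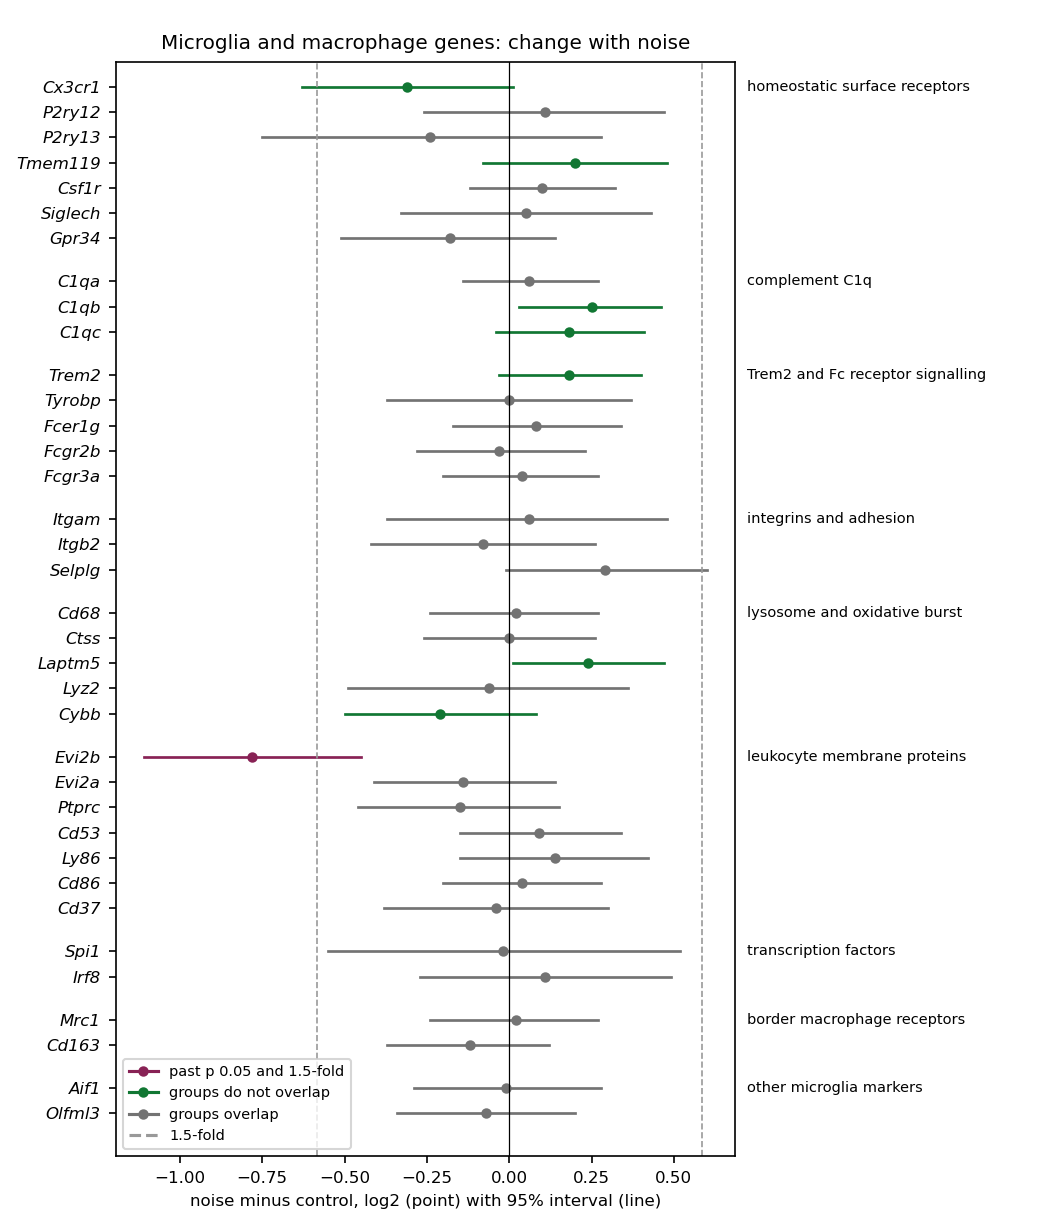
Log2 difference between noise and control (x axis) for the 36 microglial and macrophage genes, grouped by role, with 95% intervals from limma on 3 arrays per group; the dashed lines mark a 1.5-fold change. Evi2b at -0.78 lies beyond the line, and the other 35 lie between -0.31 and 0.29.

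The arrays of each group were close to one another for these genes. The mean level of the 36 genes was 5.85, 5.86 and 5.85 on the control arrays and 5.76, 5.89 and 5.90 on the noise arrays. The noise arrays lay on both sides of the controls, and the lowest was noise array 2. That array was the lowest of all 6 for 12 of the 36 genes (33.3%, against 18.5% of all genes): Cx3cr1, P2ry12, P2ry13, Ctss, Siglech, Gpr34, Fcgr2b, Fcgr3a, Lyz2, Cybb, Cd37 and Olfml3. Control array 1 was the lowest of all 6 for 9 genes (25.0%, against 14.2% of all genes). Noise array 3 was the highest for 12 (33.3%, against 22.4%) and noise array 4 for 10 (27.8%, against 13.6%). The median within-group SD was 0.14 over the 36 genes and 0.14 over all genes.

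**Figure D2:**
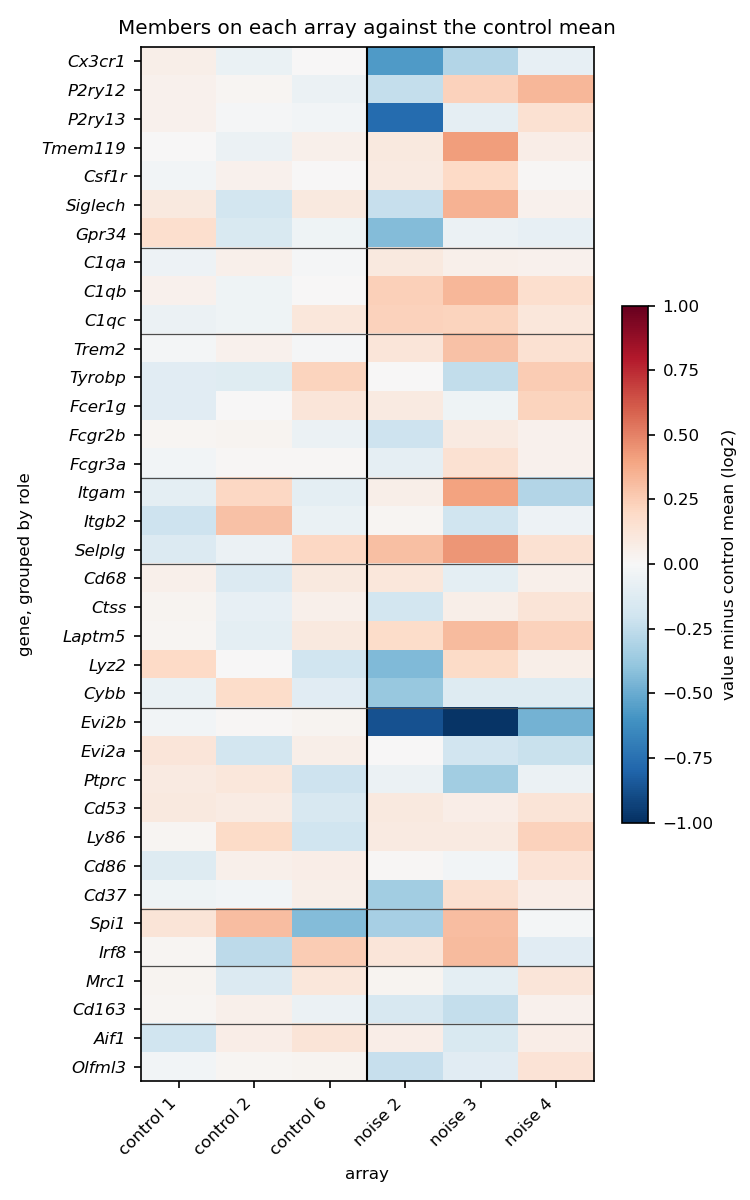
Level of each of the 36 genes on each of the 6 arrays as the difference from the gene's control mean, in log2 units, genes grouped by role. Noise array 2 is the lowest of the 6 for 12 genes, and Evi2b is low on all 3 noise arrays.

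The homeostatic surface receptors, which mark resting microglia, had 7 genes measured with a median difference of 0.05, and none passed the thresholds. Cx3cr1, the receptor for the neuronal chemokine Cx3cl1, was at 7.62, 7.49 and 7.56 on the control arrays and at 6.99, 7.27 and 7.48 on the noise arrays. All 3 noise arrays were below all 3 controls, but the nearest pair differed by only 0.0123. The difference was -0.31 ± 0.14 (SE, n = 3 per group), with a 95% interval of -0.63 to 0.01 and a limma adjusted p of 0.498. Without noise array 2 it was -0.18, and without noise array 4 it was -0.43.

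P2ry12, an ADP receptor that guides microglial processes to injury, read 7.40, 7.38 and 7.30 in control and 7.12, 7.59 and 7.69 in noise. The noise arrays fell on both sides of the narrow control range. The difference was 0.11 ± 0.16 (SE), with a 95% interval of -0.26 to 0.47. P2ry13, the neighbouring ADP receptor, spread in the same way: its controls ran from 6.76 to 6.83, noise array 2 stood at 6.02 and noise array 4 at 6.94, and the difference was -0.24 (95% interval -0.75 to 0.28). Single arrays set both values: without noise array 2 the difference was 0.28 for P2ry12 and 0.03 for P2ry13, and without noise array 4 it was -0.01 and -0.43.

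Tmem119, a membrane protein used to tell microglia from incoming macrophages, was at 5.25, 5.19 and 5.30 in control and 5.35, 5.67 and 5.32 in noise. All noise arrays were above all controls, with the nearest pair 0.0201 apart and noise array 3 standing clear of the rest. The difference was 0.20 ± 0.12 (SE), with a limma adjusted p of 0.589, and it was 0.09 without noise array 3. Csf1r, the receptor for the survival factors Csf1 and Il34, read 7.62, 7.69 and 7.65 in control and 7.74, 7.85 and 7.66 in noise. Its groups overlapped by a single noise array, and the 95% interval of the difference of 0.10 ran from -0.12 to 0.32. Gpr34, a receptor for lysophosphatidylserine, differed by -0.18 and Siglech, a sialic acid-binding lectin, by 0.05, with groups that overlapped. Without noise array 2, Gpr34 differed by -0.07.

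The C1q chains, the first component of the classical complement cascade that also tags synapses for removal, had the highest median of the role groups at 0.18. For 2 of the 3 chains the noise arrays lay wholly above the controls, as they did for 8.37% of all genes. C1qb was at 6.20, 6.12 and 6.16 on the control arrays and 6.40, 6.49 and 6.33 on the noise arrays. Every noise array was above every control, by at least 0.129. The difference was 0.25 ± 0.09 (SE, n = 3 per group), a 1.19-fold higher level, with a 95% interval of 0.03 to 0.46 and a limma adjusted p of 0.448. C1qc was at 5.73, 5.75 and 5.90 in control and 6.02, 6.01 and 5.90 in noise. Its groups were separated by 0.0018 only, and the difference was 0.18 ± 0.10 (SE). C1qa was at 6.37, 6.47 and 6.41 in control and 6.52, 6.47 and 6.46 in noise, which overlapped, and its difference was 0.06 ± 0.09 (SE). The 3 chains form 1 protein complex and are no independent replicates of a change.

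Across all 36 genes, the noise arrays lay wholly above the controls for 5 (13.9%, against 8.37% of the 20155) and wholly below them for 3 (8.33%, against 8.87%). The 5 were C1qb, C1qc, Laptm5, Trem2 and Tmem119, and the 3 were Evi2b, Cx3cr1 and Cybb. Without noise array 2, 10 lay wholly above, and without noise array 4, 6 lay wholly below. Without control array 2, 8 lay above and 5 below. Leaving out an array can only keep or raise such counts, and the share of all genes under the same omission is not given. Their rise therefore does not show that the separation depends on single arrays.

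**Figure D3:**
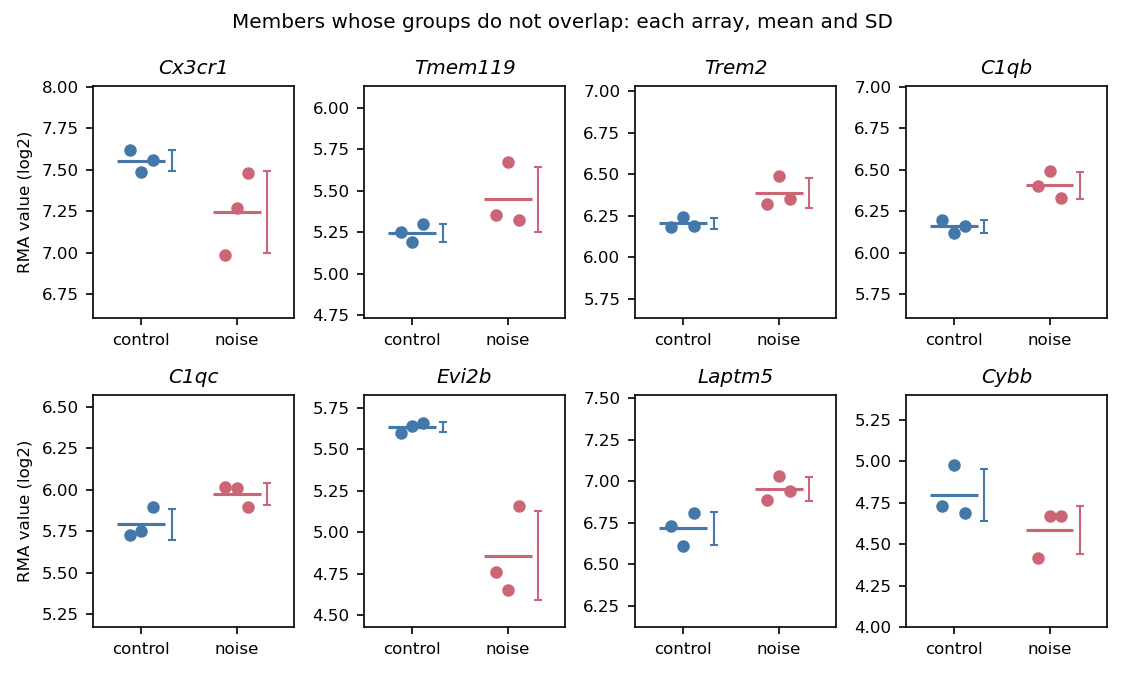
Log2 level on each array for the 8 genes whose control and noise arrays do not overlap, with the group mean and SD (n = 3 arrays per group). The gap between groups is 0.44 for Evi2b and at most 0.129 for the other 7.

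Trem2, a lipid-sensing receptor of phagocytic microglia, was at 6.18, 6.24 and 6.19 in control and 6.32, 6.49 and 6.35 in noise. All noise arrays were above the controls, by at least 0.0867. The difference was 0.18 ± 0.09 (SE), a 1.14-fold higher level, with a limma adjusted p of 0.542. Its signalling partner Tyrobp, the adaptor DAP12, was at 5.26, 5.25 and 5.59 in control and 5.37, 5.12 and 5.62 in noise, with a difference of -0.00 (95% interval -0.37 to 0.37). Tyrobp thus ran evenly through both groups. The Fc receptor genes, which bind antibody on phagocytes, lay between -0.03 and 0.08: Fcer1g, the shared signalling chain, at 0.08, Fcgr3a at 0.04 and the inhibitory receptor Fcgr2b at -0.03. Fcgr2b had a further row of the same symbol, with a difference of -0.08.

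The lysosomal and oxidative burst genes had a median of 0.00, with single genes apart in either direction. Laptm5, a lysosomal membrane protein of blood-derived and resident immune cells, was at 6.73, 6.61 and 6.81 in control and 6.89, 7.03 and 6.94 in noise. Every noise array was above every control, by at least 0.0884. The difference was 0.24 ± 0.10 (SE), a 1.18-fold higher level, with a 95% interval of 0.01 to 0.47 and a limma adjusted p of 0.478. Cybb, the catalytic subunit of the phagocyte NADPH oxidase, was at 4.73, 4.98 and 4.69 in control and 4.42, 4.67 and 4.67 in noise. Its noise arrays were all lower, the nearest pair being 0.014 apart, and the difference was -0.21 ± 0.12 (SE), or -0.13 without noise array 2 and -0.12 without control array 2. Cybb lay below the array median of 5.05, as did 8 of the 36 genes.

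Cd68, a lysosomal glycoprotein that is read as a sign of phagocytic activity, was at 4.43, 4.24 and 4.48 in control and 4.49, 4.28 and 4.43 in noise. The groups overlapped fully, and the difference was 0.02 (95% interval -0.24 to 0.27). Ctss, the lysosomal protease cathepsin S, differed by 0.00 with an interval of -0.26 to 0.26, and Lyz2, lysozyme, by -0.06.

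Among the integrins and adhesion molecules, Itgam, the CD11b chain of complement receptor 3, was at 4.23, 4.54 and 4.23 in control and 4.39, 4.73 and 4.04 in noise. The noise arrays held both the highest and the lowest value, and the difference was 0.06 ± 0.18 (SE). Its partner chain Itgb2 differed by -0.08. Selplg, the selectin ligand PSGL-1, was at 6.95, 7.03 and 7.30 in control and 7.39, 7.53 and 7.24 in noise. The groups overlapped by noise array 4, and the difference of 0.29 ± 0.13 (SE), the highest of the 36, had a 95% interval of -0.01 to 0.60.

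Evi2b (transcript cluster 17659048), a membrane protein of leukocytes, fell in the noise group. It was at 5.60, 5.64 and 5.66 on the control arrays and 4.76, 4.65 and 5.16 on the noise arrays. The controls lay within a narrow band, and the highest noise array was still 0.44 below the lowest control. The difference was -0.78 ± 0.14 (SE, n = 3 per group), a 1.71-fold higher level in control, with a 95% interval of -1.11 to -0.45. The unadjusted p in limma was 0.00073 and the adjusted p was 0.281, so the gene passed the study's thresholds and not the adjustment over all clusters. Evi2b is in the study's own table of lowered genes, which was made on these same arrays, so that entry is no independent evidence.

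In the RefSeq annotation of build GRCr8, Evi2b lies on chromosome 10 at 64970659 to 64972277. Together with Evi2a and Omg it falls inside the span of Nf1 at 64803986 to 65037086, and Rab11fip4 follows Nf1. Evi2a, a membrane protein from the same intron, was at 8.46, 8.16 and 8.40 in control and 8.34, 8.15 and 8.12 in noise, a difference of -0.14 ± 0.12 (SE) with overlapping groups. Nf1, which encodes the Ras regulator neurofibromin, differed by -0.03, the oligodendrocyte myelin glycoprotein gene Omg by -0.01 and Rab11fip4 by -0.07. Taken within each array as the difference from Evi2a, Evi2b stood at -2.86, -2.51 and -2.74 in control and at -3.58, -3.50 and -2.97 in noise, a shift of -0.64. The shift was -0.75 relative to Nf1, -0.77 relative to Omg and -0.80 relative to the mean of the other 35 microglial and macrophage genes. In each case the groups did not overlap, and the exact two-sided permutation test gave p = 0.1, the smallest that 3 arrays against 3 can give. These comparisons reuse the same Evi2b values, whose groups were already separate, so they add no independent evidence of a fall.

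**Figure D4:**
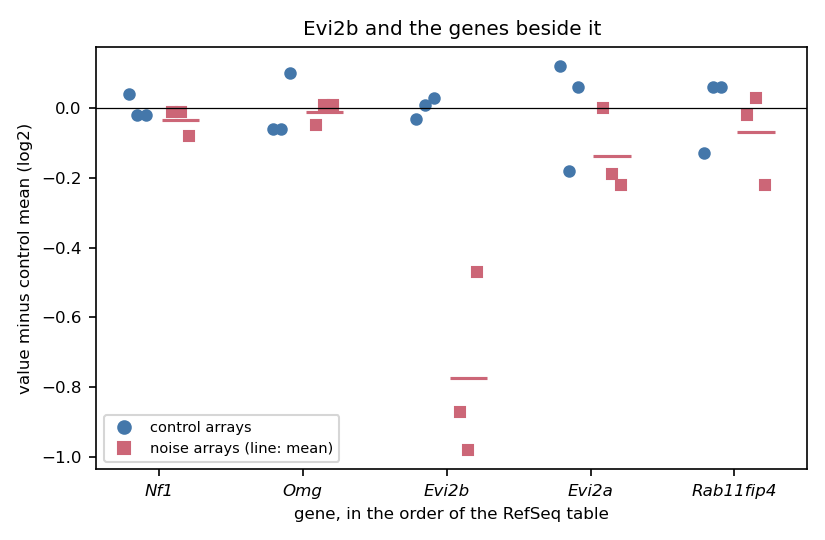
Log2 level on each array, as the difference from the gene's control mean, for Evi2b and the genes next to it on chromosome 10. The 3 noise arrays of Evi2b lie below all controls, and the group differences of Nf1, Omg, Evi2a and Rab11fip4 lie between -0.14 and -0.01.

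The genes whose values over the 6 arrays were most like those of Evi2b by Pearson correlation were RGD1308601 (r = 0.999), Gpr139, a brain G protein-coupled receptor (r = 0.997), and the zinc finger gene Zfp667 (r = 0.996). They differed by -0.34, -0.48 and -0.76 between groups. These were the best of all genes on 6 points that include the group difference itself, and no test was made. Among the other 35 microglial and macrophage genes, the best was Cx3cr1 at r = 0.841.

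The other leukocyte membrane proteins had overlapping groups. Ptprc, the phosphatase CD45 of all white blood cells, differed by -0.15. The tetraspanins Cd53 and Cd37 differed by 0.09 and -0.04, Ly86, the partner of a Toll-like receptor relative, by 0.14, and the costimulatory molecule Cd86 by 0.04. Without Cd84, this group held 7 genes, of which 1 fell and 6 did not pass.

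Spi1, the gene of PU.1 itself, was at 5.64, 5.82 and 5.08 in control and 5.18, 5.82 and 5.49 in noise. It had the highest within-group SD of the 36 genes, 0.35, and control array 6 was the lowest value. The difference was -0.02 with a 95% interval of -0.55 to 0.52, the widest interval of the 36. Irf8, its partner factor in microglia, differed by 0.11. Genes with GAGGAA in the promoter had a median difference of 0.03 (18 genes) and those without it -0.10 (6 genes), and for AGGAAGT the medians were -0.02 (10 genes) and 0.04 (14 genes).

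Mrc1, the mannose receptor CD206 of border-associated macrophages, was at 5.19, 5.02 and 5.27 in control and 5.19, 5.06 and 5.28 in noise. The groups were nearly congruent, with a difference of 0.02 (95% interval -0.24 to 0.27). Cd163, the scavenger receptor for haemoglobin, was at 4.45, 4.48 and 4.37 in control and 4.27, 4.19 and 4.47 in noise. Noise array 4 reached into the control range, and the difference was -0.12 (95% interval -0.37 to 0.12). Aif1, the Iba1 protein by which microglia are stained in tissue, was at 5.16, 5.43 and 5.49 in control and 5.43, 5.21 and 5.43 in noise, a difference of -0.01 with overlapping groups (95% interval -0.29 to 0.28). Olfml3, a secreted protein of microglia, differed by -0.07.

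A further list of 45 measured microglial genes had a median difference of -0.02, and 0 passed the thresholds upwards. Among the brightest genes of the list, Sirpa, the receptor of the signal Cd47, differed by -0.01 and Rgs10 by -0.08. Named after their values were seen, Bin2 and Sall1, the latter a transcription factor of microglial identity, were lower on every noise array (-0.58 and -0.41), and Mertk, a receptor for dying cells that astrocytes also express, was higher on every noise array (0.42). Their limma adjusted p-values were 0.29, 0.454 and 0.366, and none reached a 1.5-fold change.

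Of 15 ligands and checkpoints that act on microglia, 0 passed in either direction and the median was -0.04. Cx3cl1, the ligand of Cx3cr1, differed by -0.09, and the restraining signals Cd200 and Cd47 by 0.05 and 0.03. The survival factors Csf1 and Il34 differed by -0.13 and -0.01. Of the 15, 1 was lower on every noise array, against 8.87% of all genes. It was the complement receptor gene C3ar1, which differed by -0.44 (limma adjusted p = 0.39). Among 28 genes that rise in activated microglia, 0 passed in either direction, the median was 0.03 and 0 separated the groups. The brightest genes of this list were Ctsb at 0.03, Fth1 at -0.04 and B2m at -0.00, which many other cells also express. The differences ran from -0.30 (Cd63) to 0.46 (Ccl3, limma adjusted p = 0.479). Of the 28, 13 lay below the array median, Ccl3 among them, so their low signal limits what could be detected.

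Of 15 border macrophage genes outside the 36, 1 was lower at the thresholds (0.595% of all genes were), the iron exporter gene Slc40a1. Slc40a1 was at 5.51, 5.71 and 5.53 in control and 4.80, 4.92 and 5.12 in noise (-0.64 ± 0.12 SE, limma adjusted p = 0.29). Like Evi2b, it is in the study's table of lowered genes, and it is also expressed by other cells of the vessel wall and choroid plexus. The list's median was -0.06. Of its 15 genes, 3 were lower on every noise array (8.87% of all genes were) and 1 was higher on every noise array (8.37% were). The brightest of the list differed by 0.07 (Lyve1), -0.25 (Dab2) and 0.18 (Cd14). Cells from the blood gave 0 genes past the thresholds: 12 genes of monocytes and neutrophils had a median of 0.03, and 17 of lymphocytes a median of 0.10, with 10 and 15 of them below the array median.

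Genes of neighbouring tissue moved with the groups. The mean level of 31 choroid plexus genes ran 6.83, 6.29 and 5.55 over control arrays 1, 2 and 6 and 5.12, 5.12 and 5.27 over the noise arrays. Of the 31, 18 were lower at the thresholds, Ttr by -4.26, against 0.595% of all genes. The mean of 17 thalamus and medial habenula genes was 6.13, 5.99 and 5.63 in control and 5.20, 5.50 and 5.34 in noise, with 8 lower against the same 0.595%. Both lists hold genes of the study's own table. On the same control arrays Evi2b was at 5.60, 5.64 and 5.66. The mean of 7 endothelial genes was 6.53, 6.45 and 6.49 in control and 6.24, 6.25 and 6.38 in noise. Of the 7, 3 were lower on every noise array, against 8.87% of all genes, and 0 passed the thresholds. Neurons of the hippocampus (15 genes, median -0.06), astrocytes (9 genes, 0.05) and oligodendrocytes (10 genes, 0.00) had 0 genes past the thresholds. The part of these tissue differences in the values of the microglial and macrophage genes was not tested.

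**Figure D5:**
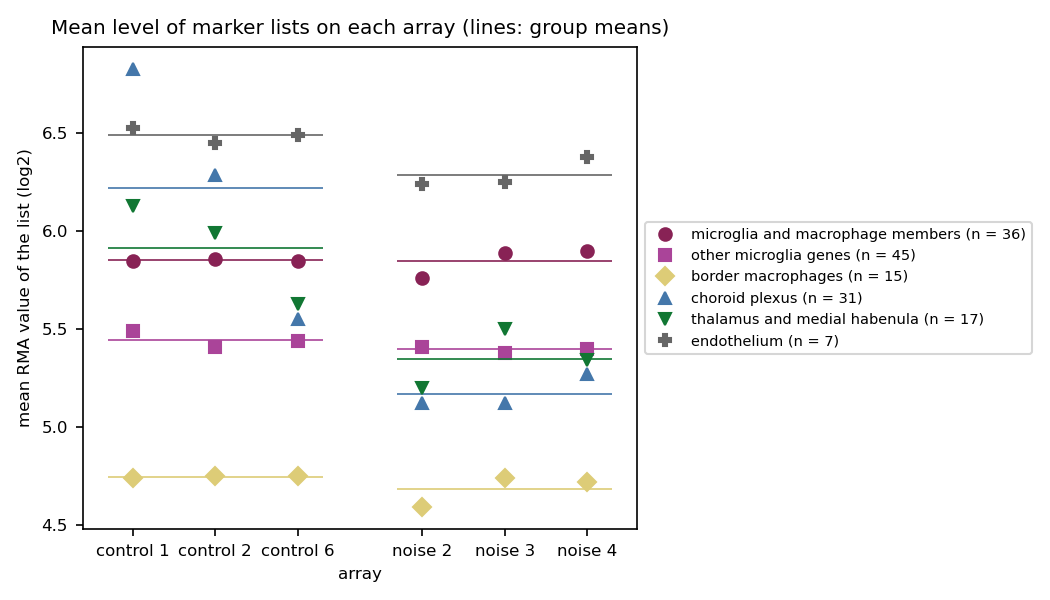
Mean log2 level of each gene list on each of the 6 arrays, with lines at the group means. The choroid plexus list runs from 6.83 to 5.55 over the control arrays and from 5.12 to 5.27 over the noise arrays, while the 36 microglial and macrophage genes stay between 5.76 and 5.90.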

How the data were processed

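RNA was extracted from hippocampi, pooled from 2 rats per array, and hybridised to Affymetrix Rat Gene 2.0 ST arrays, 3 for the control group and 3 for the noise group. The deposited values are log2 intensities that the authors made from the scans with the Robust Multi-Array Average in GeneSpring GX. This method fits all arrays together, so the values already share nearly 1 distribution: sorted values of the arrays differed by at most 0.15. The deposited workbook also holds the authors' fold changes, log ratios and p-values for their own comparison, which were not used, nor were its 2 further sheets, whose 12 columns of values of the same samples were left out.

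Of 29489 transcript clusters, 20757 carried 1 gene symbol, 768 several and 7964 none. Genes were taken from the 20155 distinct single symbols, with the brightest row where a gene had several. Each cluster was tested in R 4.3.3 with limma 3.58.1 (lmFit, eBayes, group as the only term, prior degrees of freedom 3.47), and p-values were adjusted by Benjamini-Hochberg over all clusters. No filter was applied. Pools are the replicates, so p-values measure the spread between pools, and 6 arrays limit the precision. The fit was tested on simulated data.

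The members and lists were chosen with earlier results of these data known. Every member found was named. Values on each array were given for members past the thresholds, for members with separate groups and for 15 defining genes. From other lists only some of the brightest genes and some of those past the thresholds were named, with a few further genes. Alternatives were other normalizations, variance models and filters, the methods' t-test, the mean of a gene's rows, and leaving out arrays. Promoters and gene positions came from RefSeq tables of build GRCr8, in which all 36 symbols were found. No genome was used. Results for some genes of the further microglial list are not reported here.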

Additional observations from a re-analysis of the deposited data

How the results depend on the processing

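Evi2b was the 1 gene lower at the thresholds under every alternative run, with a log2 difference of -0.93 to -0.67 and a limma adjusted p of 0.11 to 0.952. The count of genes higher was 0 under each alternative but an unadjusted limma p alone, which gave 2 (C1qb and Laptm5). With the unadjusted p of the methods' t-test alone, Trem2 (0.027) and C1qc (0.0485) were higher as well. Leaving out each array in turn, 0 to 0 genes were higher and 1 to 1 lower, and the median difference was -0.01 to 0.08. Genes with a limma interval within 1.5-fold numbered 26 to 32. Genes with separate groups numbered 5 to 10 with noise above and 3 to 6 with noise below. Leaving out an array can only keep or raise these separation counts. The median of 0.08 was without noise array 2. With all arrays, intervals from the methods' t-test lay within 1.5-fold for 25 of the 36 genes. Without control arrays 1 and 2, which had the highest choroid plexus level, these counts were 18, 10 and 6, since a single control array remained and its spread was assumed to be that of the others. The unadjusted p of C1qb in limma was over 0.05 on leaving out any array but noise array 4 (0.0298 to 0.0834), and that of Laptm5 on leaving out any but control array 6 (0.0407 to 0.135). Renewed quantile normalization and median centring left the values nearly as they were. No call at the thresholds changed for a single gene among 532 values under alternatives. No paired analysis was possible because the groups share only the replicate number 2. Spread between 3 arrays per group, and the low signal of the 8 genes below the array median, limit what could be detected.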
